A study of Mus musculus with 16 samples.

Results

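The genes described here are 9 components of Notch signalling and of the proneural programme in mouse, the ligands DLL1, DLL3 and JAG1, the receptor NOTCH1, the target genes HES1 and HES5, and the proneural factors NEUROG1, NEUROG2 and NEUROD1. They were found by their target names on Illumina MouseWG-6 v2.0 arrays, and they accounted for 9 of 30854 target names and 11 of 45281 probes, since HES5 and NEUROG2 had 2 probes each. The genes were chosen by the HES5 intensities of the co-cultures, which were lower in presence of FGF2. The comparison of FGF2 with no growth factor in the co-cultures is therefore given as a description with no test, and the tested comparisons are the others that the design allows.

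RNA had been taken at day 7 from mouse embryonic stem (ES) cells grown on PA6 cells (bone marrow stroma of the mouse, kept as a line), and from PA6 cells grown alone, all in serum-free medium. The ES cells carried EGFP at the tau locus, per the methods of the study. The ES/PA6 co-cultures comprised 2 arrays in absence of growth factors (-GFs), 3 with FGF2 at 20 ng/ml and 2 with BMP4 at 10 ng/ml, and the mono-cultures of PA6 cells comprised 3 arrays of each kind. The doses are those of the labels, while the methods state a lower dose of BMP4 and that the factors were withdrawn after 3 days. The labels describe 1 well of each condition for each biological replicate. A co-culture array measured ES-derived and PA6 cells together, so fewer cells of a type and less RNA per cell cannot be told apart.

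Notch signalling acts between neighbouring cells. A ligand of the Delta or Jagged family on a cell binds a Notch receptor on the next, the receptor is cut, and its intracellular part enters the nucleus and, with the DNA-binding protein RBPJ, turns on target genes such as HES1 and HES5. The HES proteins are repressors that hold proneural factors such as NEUROG2 down, and proneural factors in turn raise DLL1, so that in the developing nervous system progenitors and newly formed neurons are set apart.

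The proximal promoters of HES5 and DLL1 are shown because these genes had the largest differences between the FGF2 and -GFs co-cultures. Both sequences are RefSeq entries of build GRCm38.p6 and hold the 250 bases before a transcription start, printed in the direction of transcription. The HES5 window was chr4:154960673-154960922 on the + strand, and capitals mark GTGGGAA on either strand (read as TTCCCAC on the other), letters that RBPJ is known to bind. The DLL1 window was chr17:15376933-15377182 on the - strand, the farther upstream of 2 listed starts, and capitals mark the E-box letters CANNTG, the kind of site that proneural factors are known to bind.
HES5: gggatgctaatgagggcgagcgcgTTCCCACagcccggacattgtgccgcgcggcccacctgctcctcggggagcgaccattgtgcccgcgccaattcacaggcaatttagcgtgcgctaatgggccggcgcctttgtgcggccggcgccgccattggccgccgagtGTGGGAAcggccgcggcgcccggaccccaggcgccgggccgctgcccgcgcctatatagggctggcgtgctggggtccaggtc
DLL1: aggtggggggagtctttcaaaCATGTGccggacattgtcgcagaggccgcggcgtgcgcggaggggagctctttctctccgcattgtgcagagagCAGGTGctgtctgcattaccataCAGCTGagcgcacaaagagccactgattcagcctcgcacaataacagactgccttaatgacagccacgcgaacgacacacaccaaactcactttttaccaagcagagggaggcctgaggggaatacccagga
The HES5 window held GTGGGAA at 2 places, with first bases 226 and 83 bases before the start, and neither overlapped its single CANNTG. Among all 32851 promoter windows of this length, 5.42% held GTGGGAA on either strand. The DLL1 window held CANNTG at 3 places, 229, 155 and 132 bases before the start, and the letters GTGGGAA were not in it. E-box letters are common, since 66.2% of all windows held them. Windows were listed for 8 of the 9 genes, 9 in all, of which 1 held GTGGGAA and 6 held CANNTG. A match is a description of the letters, not evidence that a factor was bound.

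**Figure D1:**
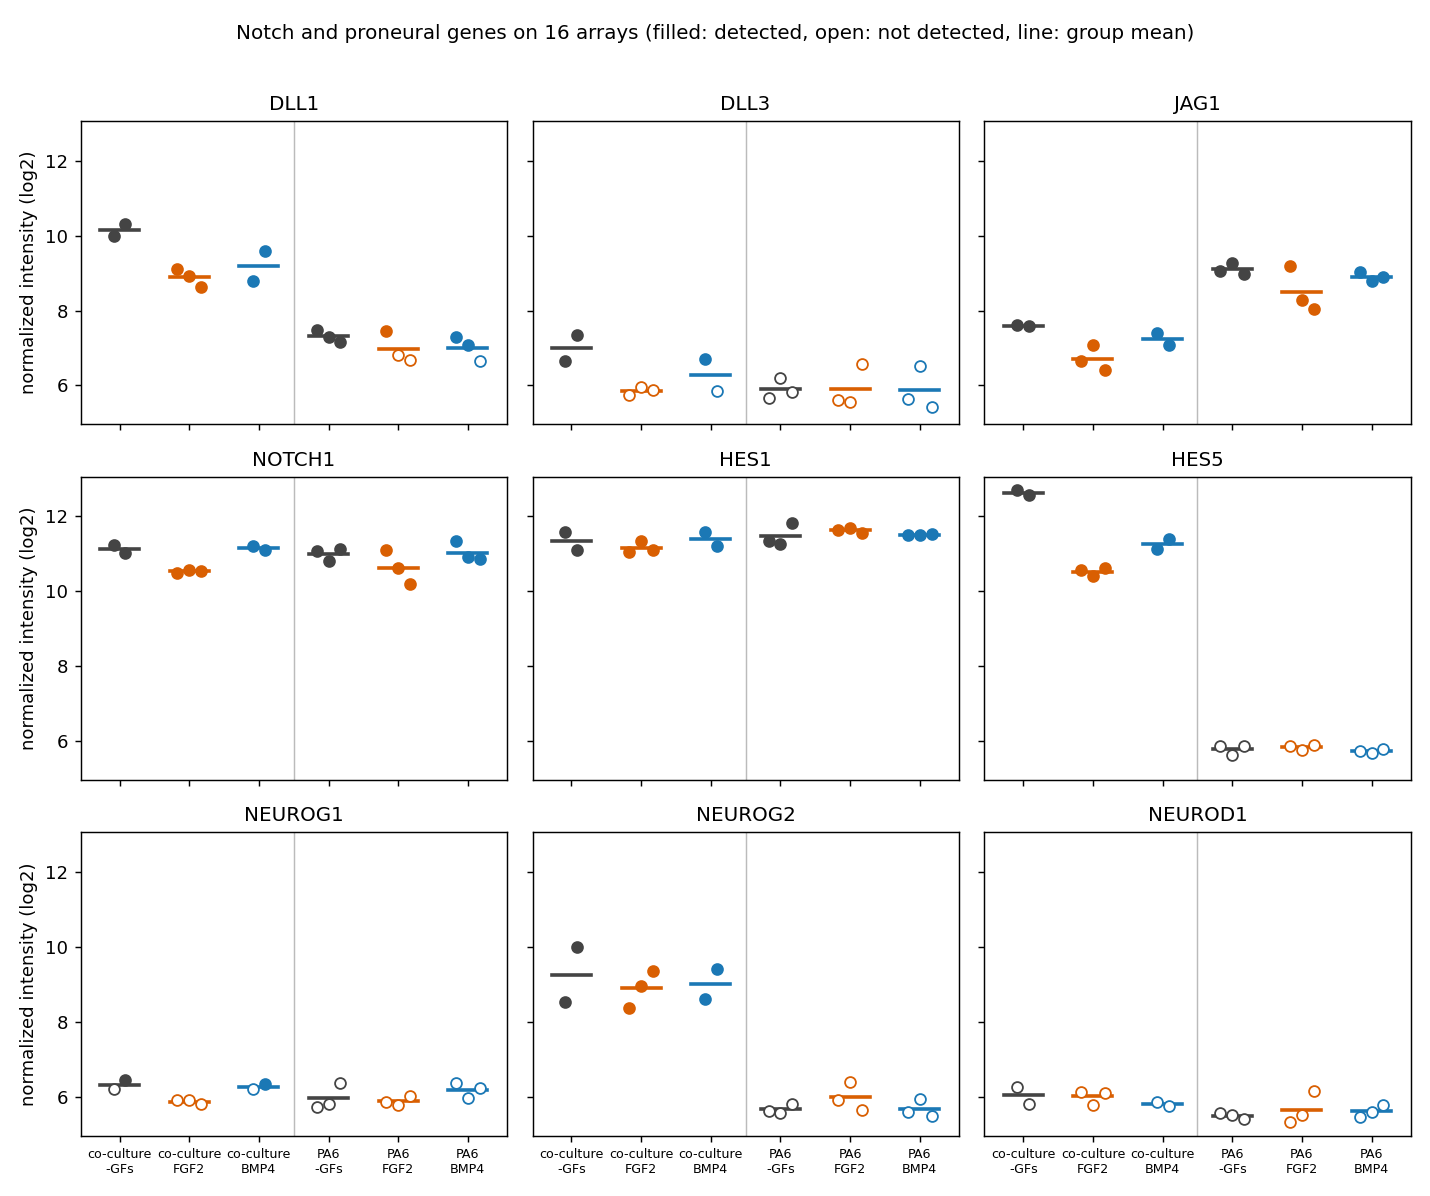
Normalized intensity (log2) of the 9 genes on each of 16 arrays, by culture and growth factor, with the brighter probe of HES5 and of NEUROG2; filled points were detected, open points were not, and lines are group means. HES5 lay at 12.57 and 12.70 in the -GFs co-cultures, between 10.40 and 10.62 with FGF2, at 11.12 and 11.39 with BMP4, and was detected on no PA6 array.

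Values are log2 intensities after background correction and normalization over the 16 arrays. A probe was counted as detected on an array where its deposited detection p-value was under 0.05, and a gene was tested where it was detected on every array of at least 1 group. This held for 7 of the 9 genes and for 14829 genes in all. DLL3 passed through the -GFs co-cultures alone, and HES5 and NEUROG2 through co-culture groups alone. Levels are compared between groups for 1 probe at a time and not between probes.

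Cell type markers were measured on the same arrays. The PA6 mono-cultures carried stroma markers, and the summed intensity of 8 of them was 151713 to 197330 against 55653 to 75346 in the co-cultures. Neuron markers (10 genes) and neural progenitor markers (7 genes) summed to at most 658 and 776 in PA6, and the defining progenitor markers SOX1 and PAX6 were detected on no PA6 array. In the co-cultures the neuron markers summed to 14284 to 30030 with -GFs, 15678 to 19197 with FGF2 and 7540 to 8093 with BMP4. Pluripotent cell markers (8 genes) summed to 37736 to 43324, 112496 to 127378 and 67779 to 85430 in the same order. Epidermal markers (6 genes) reached 18476 to 32609 with BMP4 and at most 2529 in the other co-cultures, and endothelial markers (6 genes) reached 1986 to 3231 with FGF2 and 1271 to 1611 with BMP4 against 485 to 574 with -GFs, with CDH5, TIE1 and ICAM2 detected on no FGF2 array. SOX1 was detected on no co-culture array with FGF2 or BMP4, PAX6, SNAP25 and NEFL on no co-culture array at all, and TUBB3 on none with -GFs or FGF2. The study stained βIII-tubulin (TUBB3) cells with -GFs and FGF2. Its real-time PCR found VE-cadherin (CDH5), ICAM2 and TIE1 raised with FGF2. An undetected probe here is therefore not evidence that the gene or cell type was absent.

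**Figure D2:**
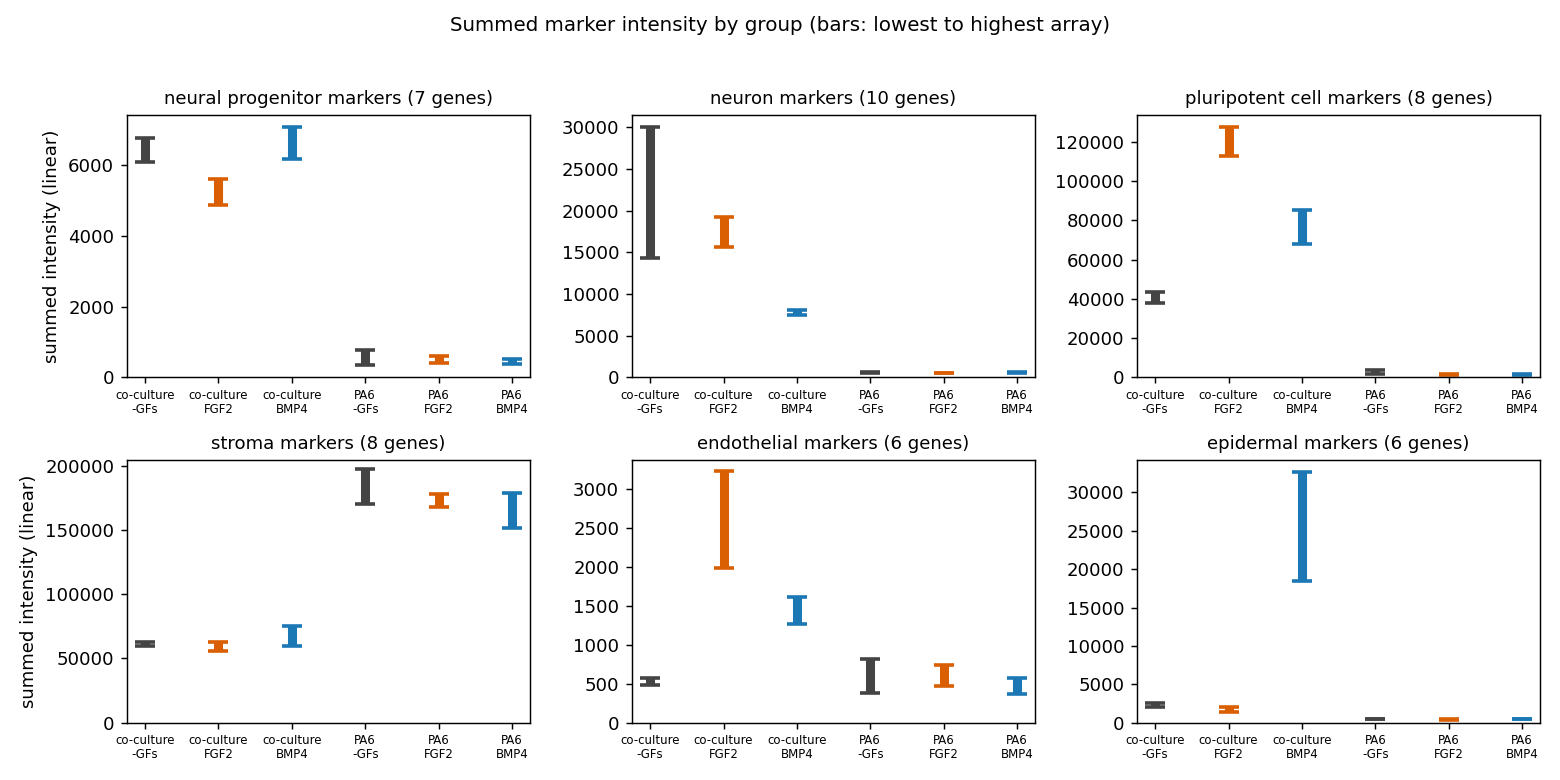
Summed linear intensity of 6 marker lists in each group, drawn as a bar from the lowest to the highest array of the group. The pluripotent cell markers rank FGF2 over BMP4 over -GFs in the co-cultures, with 112496 to 127378, 67779 to 85430 and 37736 to 43324.

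HES5, the Notch target that marks neural progenitors, had the widest differences of the 9 genes among the co-cultures. Its brighter probe gave 12.70 and 12.57 with -GFs, 10.56, 10.40 and 10.62 with FGF2, and 11.12 and 11.39 with BMP4. The 3 groups did not overlap, with -GFs highest and FGF2 lowest. FGF2 minus -GFs was -2.11 ± 0.18 (SE) on the log2 scale, 4.32-fold lower, which is the value that chose the genes. The dimmer probe gave 12.23 and 11.72 with -GFs, 9.86, 9.64 and 9.89 with FGF2, and 10.52 and 10.66 with BMP4, in the same order and again without overlap.

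HES5 also fell with BMP4 in the co-cultures, by 1.38 ± 0.19 (SE) on the log2 scale, 2.60-fold, with an adjusted p of 0.0228 (limma, Benjamini-Hochberg over 14829 genes). The call rule throughout was an adjusted p under 0.1 with a log2 change over 1 in size, and 1 of the 7 genes was called lower and none higher (limma, 2 with an unadjusted p under 0.05, HES5 and DLL1), against 1.47% of all genes called lower, 2.28% higher and 3.75% in either direction. This comparison shares its 2 -GFs arrays with the contrast that chose the genes and is not independent of it. Without the first BMP4 co-culture the change was -1.25 with an adjusted p of 0.141, above the threshold, and over all alternatives the adjusted p ranged from 0.000124 to 0.141. The dimmer probe gave -1.38 ± 0.23 with an adjusted p of 0.0413.

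Between the factors, HES5 was 0.73 ± 0.18 (SE) higher on the log2 scale with BMP4 than with FGF2, with an adjusted p of 0.136, which did not pass. This comparison shares its FGF2 arrays with the contrast that chose the genes and is not independent of it. The summed neural progenitor markers were 6087 to 6767 with -GFs, 4863 to 5588 with FGF2 and 6178 to 7075 with BMP4, and those of pluripotent cells moved as given above. The sum hid unlike members, since with BMP4 4 of the 5 tested lay below 0 (median -0.43) and ZIC1 at 0.84 ± 0.29 (SE, adjusted p 0.228), and with FGF2 NES differed by -1.29 and SOX2, also a gene of pluripotent cells, by 0.45. Their part in the HES5 differences was not tested.

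HES1, the other HES gene, showed no such order. It was 11.57 and 11.10 with -GFs, 11.04, 11.35 and 11.09 with FGF2, and 11.57 and 11.21 with BMP4, and the 3 groups overlapped. FGF2 minus -GFs was -0.18 ± 0.22 (SE) and BMP4 minus -GFs was 0.05 ± 0.25, with an adjusted p of 0.964. The difference between HES5 and HES1 was not tested.

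DLL1, the Delta ligand of newly formed neurons, was 9.99 and 10.31 with -GFs, 9.11, 8.91 and 8.64 with FGF2, and 8.80 and 9.58 with BMP4. Both -GFs arrays lay above every array with a factor, while the FGF2 and BMP4 arrays overlapped. FGF2 minus -GFs was -1.26 ± 0.28 (SE), 2.40-fold lower. BMP4 minus -GFs was -0.96 ± 0.30 with an adjusted p of 0.192, which did not pass.

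DLL3, a Delta family member that acts within the cell that makes it, was detected on 3 co-culture arrays, at 6.66 and 7.36 with -GFs and at 6.70 with the first BMP4 array. It was undetected on all 3 FGF2 arrays, at 5.75, 5.96 and 5.87, and at 5.84 on the second BMP4 array. Since it was tested only because the -GFs arrays detected it, it had to be higher there, and against the detection level of the FGF2 arrays it was at least 1.45-fold lower with FGF2. The measured difference of -1.15 became -0.63 without background correction and -0.80 without the second -GFs array. BMP4 minus -GFs was -0.74 ± 0.34 with an adjusted p of 0.378, which did not pass.

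JAG1, a Jagged ligand, was 7.61 and 7.58 with -GFs, 6.65, 7.09 and 6.42 with FGF2, and 7.41 and 7.08 with BMP4. The FGF2 and -GFs arrays did not overlap, and FGF2 minus -GFs was -0.88 ± 0.24 (SE). Without background correction that difference was -0.44. BMP4 minus -GFs was -0.36 ± 0.26 with an adjusted p of 0.625, and BMP4 minus FGF2 was 0.52 ± 0.24 with an adjusted p of 0.386. Neither passed.

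NOTCH1, the receptor, was 11.23 and 11.01 with -GFs, 10.50, 10.58 and 10.54 with FGF2, and 11.20 and 11.11 with BMP4. The FGF2 arrays were the lowest and did not overlap the others. FGF2 minus -GFs was -0.59 ± 0.16 (SE), under 2-fold. BMP4 minus -GFs was 0.03 ± 0.18 with an adjusted p of 0.972, and BMP4 minus FGF2 was 0.62 ± 0.16 with an adjusted p of 0.162.

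Among the proneural factors only NEUROG2 had a level in all co-cultures. It was 8.52 and 10.00 with -GFs, 8.37, 8.96 and 9.36 with FGF2, and 8.61 and 9.41 with BMP4. The arrays of a group were up to 1.48 apart, more than any difference between group means. FGF2 minus -GFs was -0.36 ± 0.49 (SE) and BMP4 minus -GFs was -0.25 ± 0.54, with an adjusted p of 0.912. Its dimmer probe, between 6.17 and 6.91 in the co-cultures, was detected on 3 arrays and did not pass the filter.

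NEUROG1 and NEUROD1 were not tested. NEUROG1, which like NEUROG2 starts neurogenesis, was detected on the second -GFs co-culture at 6.45 and on the second BMP4 co-culture at 6.34, and on no other array. NEUROD1, a later factor of neuronal differentiation, was detected on none of the 16 arrays and lay between 5.33 and 6.26.

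Over the 7 genes tested, FGF2 minus -GFs in the co-cultures ran from -2.11 to -0.18. The measured difference of 3 (HES5, DLL1 and DLL3) was over 2-fold lower, although for DLL3, undetected with FGF2, only the bound of 1.45-fold holds. Of all genes, 3.53% were over 2-fold lower, 6.33% over 2-fold higher and 9.86% changed over 2-fold in either direction. Since HES5 was the reason for the choice, nothing is read from that count. In the comparison of BMP4 with FGF2 none of the 7 genes was called (limma, 2 with an unadjusted p under 0.05) against 0.755% of all genes called higher, 0.688% lower and 1.44% in either direction, and the differences ran from 0.11 to 0.73. Those 2 genes were HES5 and NOTCH1. The FGF2 arrays of this comparison are those of the contrast that chose the genes, so it is not independent of the choice.

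**Figure D3:**
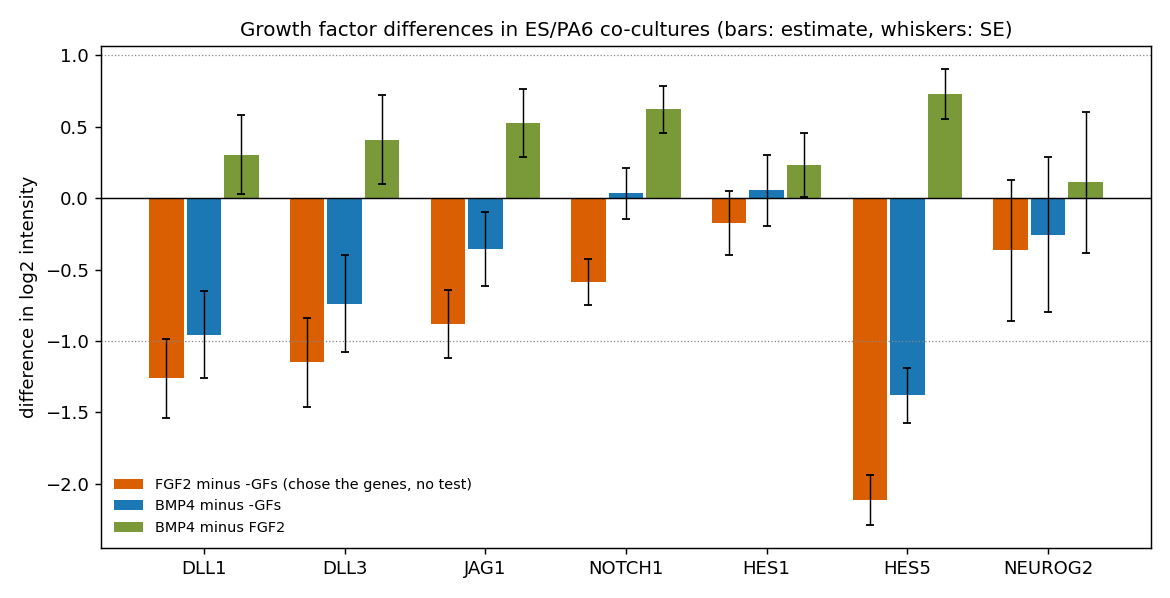
Differences in log2 intensity between growth factor conditions of the co-cultures for the 7 genes tested, with SE as whiskers and dotted lines at a 2-fold change. HES5 reached -2.11 with FGF2 and -1.38 with BMP4, while HES1 stayed within 0.23 of 0 in all 3 comparisons.

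Other genes of the pathway were counted in 4 lists that leave out the 9 genes. Of 4 other ligands and receptors tested, none was over 2-fold changed with FGF2 and none was called with BMP4 against -GFs (limma, 2 with an unadjusted p under 0.05). Of 16 genes for receptor processing and the transcription complex, 1 was over 2-fold lower with FGF2, MAML1, a coactivator, at -1.38 ± 0.37 (SE), which was -0.88 without the first -GFs array and -1.88 without the second. None of the 16 was called with BMP4 (limma, 2 with an unadjusted p under 0.05), and their median change was -0.05 against 0.00 over all genes.

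Of 14 other targets and modulators, 3 were over 2-fold lower with FGF2. HES3, another HES repressor, was detected on both -GFs arrays (6.73 and 8.75) and on no FGF2 or BMP4 co-culture, at least 2.41-fold lower with FGF2 on the mean of these unlike arrays. It was tested only because the -GFs arrays detected it, and the measured difference was -1.07 without the higher of them and -3.09 without the lower. NRARP, a Notch target that feeds back on the pathway, went from a range of 12.81 to 12.93 with -GFs to 11.50 to 11.94 with FGF2, a difference of -1.21 ± 0.20 (SE). DTX4, of the Deltex family of ubiquitin ligases, differed by -1.22 ± 0.23. With BMP4 NRARP differed by -0.93 ± 0.21 with an adjusted p of 0.0867, short of the 2-fold limit. The gene called was MFNG, a glycosyltransferase that modifies Notch receptors, which fell by 1.13 ± 0.26 with an adjusted p of 0.0915 (0.0177 to 0.386 over the alternatives), and 12 of 19 alternatives ended this call. DTX1, another Deltex gene, was the gene called between the factors, with a difference of -2.30 ± 0.38 for BMP4 minus FGF2 and an adjusted p of 0.0688 (0.000998 to 0.239 over the alternatives), and 7 of 19 alternatives ended it.

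Of 16 other proneural and neurogenic genes, 13 were below 0 with FGF2 and 13 with BMP4, with medians of -0.54 and -0.66 against -0.06 and 0.00 over all genes. Past 2-fold with FGF2 were ELAVL3, a neuronal RNA-binding protein, at -1.10 ± 0.27 (SE), and OLIG1, a factor of the oligodendrocyte lineage, at 1.55 ± 0.33. ELAVL3 was under 2-fold, at -0.67, without the second -GFs array and at -0.98 without background correction, where OLIG1 was at 0.86. With BMP4, 2 were called, both lower. ELAVL3 fell by 1.73 ± 0.29 with an adjusted p of 0.0373, and MYT1, a zinc finger factor of early neurons, fell by 1.71 ± 0.35 with an adjusted p of 0.0641. Leaving out any of 3 arrays (the second -GFs and either BMP4 co-culture) ended the ELAVL3 call, with adjusted p-values of 0.102 to 0.207, and 9 of 19 alternatives ended the MYT1 call, with adjusted p-values up to 0.4. ELAVL3 also counts as a neuron marker, of which 5 of 7 tested were called lower with BMP4.

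**Figure D4:**
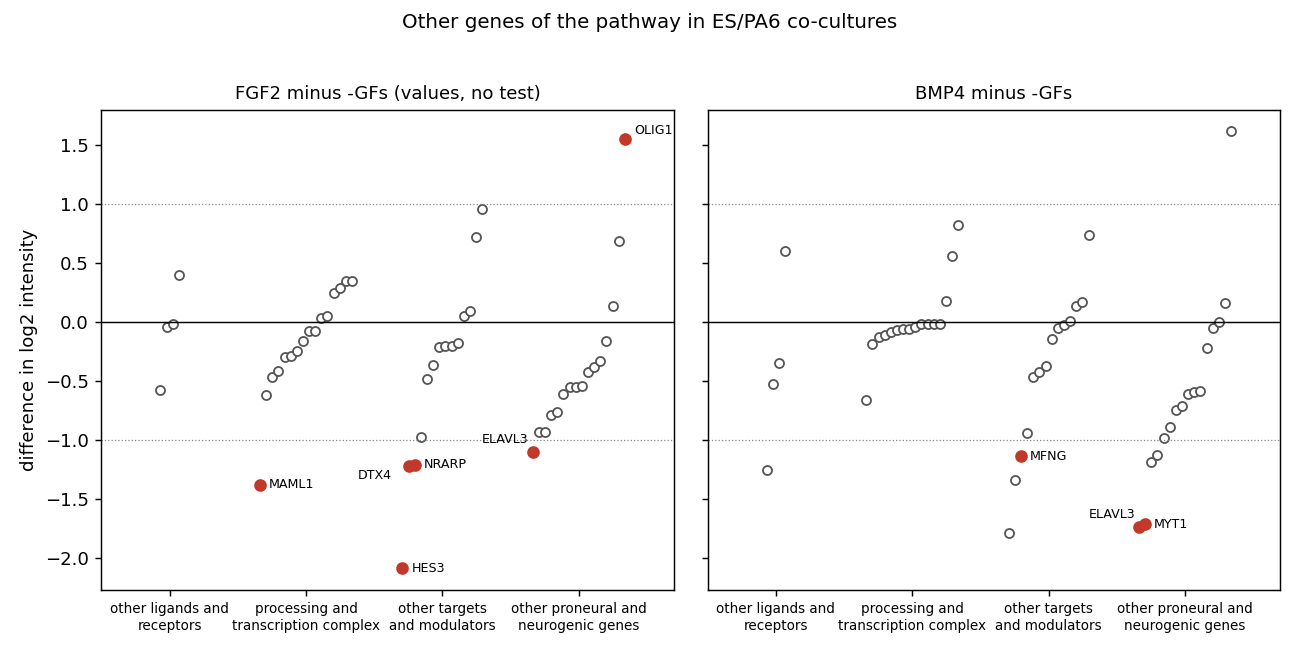
Differences in log2 intensity of the other genes of the pathway in the co-cultures, 1 point per gene in 4 lists, for FGF2 minus -GFs and for BMP4 minus -GFs; red points are over 2-fold changed (FGF2, no test) or called (BMP4). HES3 was undetected with both factors, so its points mark measured means and not a level. ELAVL3 and MYT1 were lowest among those called with BMP4 at -1.73 and -1.71.

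In the mono-cultures of PA6 cells neither FGF2 nor BMP4 gave a call among the 7 genes. With FGF2 none was called (limma, 0 with an unadjusted p under 0.05) against 0.00674% of all genes called higher, 0.0202% lower and 0.0270% in either direction, and the changes ran from -0.60 for JAG1 to 0.32 for NEUROG2, which was undetected. With BMP4 none was called (limma, 0 with an unadjusted p under 0.05), as was no gene at all, and the changes ran from -0.31 to 0.03. These comparisons share no array with the contrast that chose the genes. In PA6 cells JAG1 was 9.06, 9.26 and 8.98 with -GFs, 9.18, 8.28 and 8.04 with FGF2, and 9.02, 8.80 and 8.89 with BMP4. Its FGF2 arrays were spread over 1.14, and the first lay within the -GFs range.

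The change of HES5 with BMP4 in the co-cultures minus that in PA6 cells was -1.33 ± 0.20 (SE) on the log2 scale. It rests on the -GFs co-culture arrays that chose the genes, and the brighter HES5 probe was undetected on all 9 PA6 arrays, between 5.62 and 5.89, so the difference repeats the co-culture change and shows nothing about an effect in PA6 cells. It was -1.24 with median scaling and -1.07 ± 0.71 with the dimmer probe, which was detected on 1 PA6 array at 7.60. None of the other 6 genes was called (limma, 0 with an unadjusted p under 0.05), and of all genes 1.63% were called lower, 2.61% higher and 4.23% in either direction. The difference between the FGF2 changes of the co-cultures and of PA6 cells was not tested.

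The co-cultures and the mono-cultures were then compared under the same condition. The comparison with BMP4 shares no array with the contrast that chose the genes, and of all genes 22.0% were called higher there, 20.3% lower and 42.4% in either direction. HES5, NEUROG2 and DLL3 had passed the detection filter through co-cultures alone, so being higher there was set by the filter, and they are given as values with no test. HES5 was at least 21.2-fold higher with BMP4, at 11.12 and 11.39 against 5.74, 5.68 and 5.78 in PA6, where its brighter probe was undetected. NEUROG2, undetected on all 9 PA6 arrays between 5.50 and 6.41, was at least 4.46-fold higher. DLL1, which the -GFs PA6 arrays also detected, was called 2.19 ± 0.28 (SE) higher with an adjusted p of 1.67e-05. It was detected on 6 of the 9 PA6 arrays, between 7.07 and 7.48, and lay between 6.64 and 6.81 on the other 3.

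JAG1 was the member higher in PA6 cells. It was called lower in the co-cultures with BMP4, at -1.66 ± 0.28 (SE) with an adjusted p of 0.000184, and differed by -1.50 with -GFs and by -1.78 with FGF2. The lowest PA6 array, 8.04, lay above the highest co-culture array, 7.61. The stroma markers moved the same way, with 5 of 8 called lower in the co-cultures with BMP4 and a median of -1.43 for the 8, and their part in the JAG1 difference was not tested.

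The comparisons with -GFs and with FGF2 use the co-culture arrays whose HES5 values chose the genes, and are given as values with no test. Of all genes 22.3% were called higher and 21.8% lower (44.1% in either direction) with -GFs, and 23.4% and 22.9% (46.4% in either direction) with FGF2. HES5 was at least 61.6-fold higher in the co-cultures with -GFs and at least 13.2-fold with FGF2, and NEUROG2 at least 5.95-fold and 4.27-fold. DLL1 was higher by 2.84 ± 0.28 (SE) and 1.90 ± 0.25. DLL3, which passed the filter through the -GFs co-cultures alone and so had to be higher there, was at least 1.25-fold higher with -GFs, and its measured difference of 1.11 was 0.76 without the second -GFs co-culture and 0.62 without background correction.

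In these comparisons NOTCH1 lay close to its PA6 levels, and HES1 did so with -GFs and with BMP4. NOTCH1 differed by 0.12 ± 0.23 (SE) with -GFs, -0.10 ± 0.20 with FGF2 and 0.12 ± 0.23 with BMP4, and its PA6 arrays lay between 10.19 and 11.33. HES1 lay between 11.27 and 11.83 on the PA6 arrays. Its difference was -0.15 ± 0.20 with -GFs, -0.47 ± 0.18 with FGF2 and -0.12 ± 0.20 with BMP4, with an adjusted p of 0.617 with BMP4. NOTCH1 had one of 0.658 there, and neither passed. With FGF2 the HES1 arrays did not overlap, at 11.04 to 11.35 in the co-cultures and 11.56 to 11.70 in PA6. That HES1 difference was -0.82 with median scaling, and -0.65 relative to the median of all genes.

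**Figure D5:**
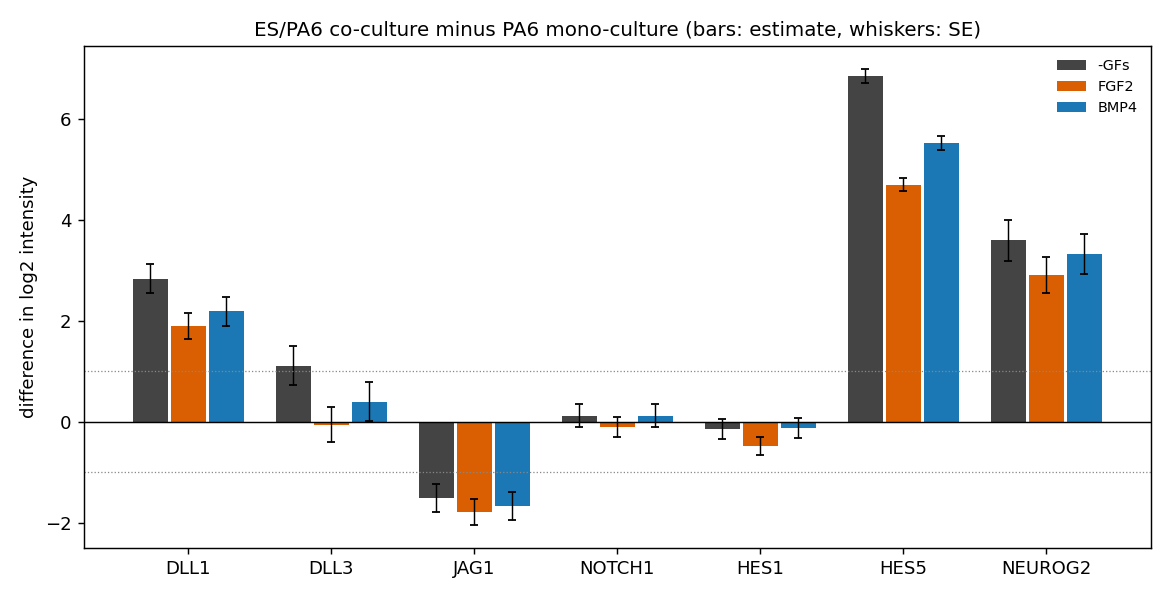
Co-culture minus PA6 mono-culture in log2 intensity for the 7 genes tested under each condition, with SE as whiskers and dotted lines at a 2-fold change. Bars of HES5, NEUROG2 and DLL3 are differences of measured means against undetected PA6 probes and not bounds. JAG1 is the gene below -1 under all 3 conditions.

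The rest of the pathway was compared between cultures with BMP4 alone, where no array was used in the choice. Of the 4 other ligands and receptors, 3 were called higher in the co-cultures. They were DNER, a neuronal transmembrane ligand, at least 6.84-fold, the receptor NOTCH4 by 1.80 ± 0.23 (SE) on the log2 scale, and the ligand JAG2, at least 1.44-fold. Of the 16 processing and complex genes, 1 was called higher, NEURL, a ubiquitin ligase for Delta ligands, by 3.35 ± 0.36, and 5 lower, led by PSEN2, a subunit of the protease that cuts Notch, at -2.22 ± 0.22, and the coactivator MAML2 at -1.71 ± 0.16. Of the 14 other targets and modulators, 5 were called higher and 2 lower. NRARP was at least 33.9-fold and MFNG at least 6.18-fold higher, while HEY2, a target typical of the vascular and cardiac lineages, differed by -2.63 ± 0.25. HEY2 was detected on 1 of the 2 BMP4 co-cultures and passed the detection filter through PA6 groups alone. Being lower in the co-cultures was therefore set by the filter for HEY2.

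Of the 16 other proneural and neurogenic genes, 10 were called higher and none lower (limma). SOX11, a factor of immature neurons, was at least 146-fold higher, INSM1, a zinc finger factor of neuronal precursors, at least 13.5-fold, and NEUROD4 at least 6.70-fold. Background for these counts is the 22.0% of all genes called higher and 20.3% called lower. The genes given as a bound were undetected in PA6 with BMP4, and those that passed the filter through co-cultures alone could only be higher there, so the counts are a description. All 7 neuron markers tested and 4 of 5 neural progenitor markers were called higher in the co-cultures as well. These markers passed the filter through co-cultures alone, so their direction was set by it. The neuron markers were undetected on every PA6 array with BMP4, so their median of 3.23 is a measured difference and not a bound. The part of these markers was not tested.

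For each tested member the genes most alike over the 7 co-culture arrays are named by Pearson's r, as a description. The arrays share the groups that chose the members, and with 7 points many genes come close, since 375 of 14828 genes had an r over 0.9 with HES5, 193 with DLL1, 126 with NOTCH1, 76 with NEUROG2, 57 with JAG1, 31 with DLL3 and 23 with HES1. Closest to HES5 were the target names 4933424A20RIK (0.995), MSI2 (0.995) and ZMYND11 (0.992). Closest to DLL1 were VPS4A (0.994), A130028J20RIK (0.980) and GALNT9 (0.979), and closest to JAG1 were CLTA (0.996), MARCKSL1 (0.983) and EPHB2 (0.974). Closest to NOTCH1 were a RIKEN clone (0.981), LOC100047827 (0.981) and PARD6G (0.980), closest to NEUROG2 SARDH (0.977), 2010110K16RIK (0.969) and C230080E09RIK (0.967), closest to DLL3 CSGALNACT1 (0.970), 3010027A04RIK (0.965) and ZFP282 (0.962), and closest to HES1 2410018L13RIK (0.968), D030032D21RIK (0.961) and E030016N13RIK (0.960). Among the members themselves HES5 and DLL1 had an r of 0.905, NOTCH1 and JAG1 0.825, and HES1 and NEUROG2 -0.478.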

How the data were processed

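The 16 RNA samples, 1 per array, were measured on Illumina MouseWG-6 v2.0 BeadChips. The authors deposited a bead intensity per probe and array that was not normalized between arrays, and a detection p-value for each, made with GenomeStudio 2011.01 per the labels. They used cubic spline normalized values for their own comparisons, which are not used here. The deposited table gives target names and no genome build. All 9 names matched RefSeq (GRCm38.p6).

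Intensities were background corrected from the detection p-values, quantile normalized and log2 transformed with 16 added first (limma 3.58.1, function neqc, R 4.3.3). The filter kept 20880 probes that all arrays of some group detected, with p under 0.05, and each of 14829 genes took its probe of largest mean. Between 37.3% and 47.0% of probes were detected per array. Moderated linear models were fitted to the 7 co-culture arrays, to the 9 PA6 arrays, or to all 16 for comparisons between cultures, with Benjamini-Hochberg adjustment, and tested on simulated data. Where a group was undetected, folds were bounded against the lowest detected signal on its arrays. The number of arrays limits the precision. The genes named were the 9 members, called or over 2-fold changed genes of 4 pathway lists (at most 6 per list and comparison, here up to 3 between cultures), and 3 genes most like each member. Members and lists were chosen with earlier results of these data known. Alternatives are given at the end, and the run of columns and the dimmer HES5 probe were chosen after seeing the data.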

Additional observations from a re-analysis of the deposited data

Results flagged for a closer look

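For 2 genes the limma interaction term over all 16 arrays, BMP4 change in the co-cultures minus that in PA6 cells, passed the threshold. Neither had a measured level in PA6, since the tested probe was undetected on every PA6 array. For HES5 the term was -1.33 ± 0.20 (SE) on the log2 scale, with an adjusted p of 0.0026. It repeats the co-culture change and rests on the -GFs arrays that chose the genes. The call was lost with median scaling (-1.24, adjusted p 0.134) and with the dimmer HES5 probe (-1.07, adjusted p 0.536), in a range of 0.00101 to 0.536. The same difference for INSM1 was -1.19 ± 0.32 with an adjusted p of 0.0689, and 11 of 27 alternatives ended that call, with a range of 0.0404 to 0.254. INSM1 was 11.14 and 11.53 in the -GFs co-cultures and 10.52 and 10.68 with BMP4, and was not called there. Its undetected PA6 values had means of 5.49 with -GFs and 5.94 with BMP4. This shift between undetected values is part of the INSM1 difference, which therefore does not only repeat the co-culture change.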

How the results depend on the processing

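Under alternatives, the 1 gene called lower with BMP4 in the co-cultures (HES5) became 0 where detection was asked on all 16 arrays, which removes HES5, and the count ranged from 0 to 1 when each array was left out. Between cultures, the same filter left 1 call in each of the 3 conditions in place of 5, 4 and 4, and without background correction the -GFs count was 3. These counts include HES5 and NEUROG2, and DLL3 with -GFs, whose direction was set by the main detection filter. They describe the processing and are no test of the members. Of all genes 44.1%, 46.4% and 42.4% were called in either direction with -GFs, FGF2 and BMP4. With each array left out the member counts ranged from 4 to 5 with -GFs and were 4 with FGF2 and with BMP4. The HES5 difference in BMP4 effect went from 1 call to 0 with that filter and with median scaling, and stayed at 1 with each array left out. Counts of 0 for BMP4 against FGF2 and for both factors in PA6 stayed 0 under all alternatives run. HES1, NOTCH1 and NEUROG2 turned sign with BMP4 in the co-cultures without being called: HES1 was -0.034 with the run of columns as a block, and leaving out arrays gave -0.18 to 0.29 for HES1, -0.077 to 0.14 for NOTCH1 and -0.99 to 0.48 for NEUROG2. The cause was not tested.

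Median scaling moved the median of all genes to -0.21 for FGF2 against -GFs in the co-cultures, to 0.29 for BMP4 against FGF2 and to 0.24 for the difference in BMP4 effect. Relative to these, HES5 stood at -2.09, 0.71 and -1.48. Between cultures it moved the median to -0.08, -0.17 and 0.13 with -GFs, FGF2 and BMP4, and relative to these JAG1 stood at -1.41, -1.50 and -1.50. The share of calls that were higher went from 52.3% to 63.8% for BMP4 against FGF2 and from 61.6% to 77.4% for the difference in BMP4 effect. Calls over all genes ranged from 32 to 870 (556 as reported) for BMP4 against -GFs in the co-cultures, from 2 to 574 (214) for BMP4 against FGF2, from 0 to 32 (4) for FGF2 in PA6, from 0 to 6 (0) for BMP4 in PA6, and from 106 to 764 (628) for the difference in BMP4 effect. Between cultures they ranged from 3480 to 10123 (6540), 3575 to 10860 (6874) and 3236 to 9981 (6283). Between cultures with -GFs, where values are given with no test, the direction of DLL3 was set by the detection filter. Its difference was 0.62 with no background correction and 0.80 with an offset of 50, both under 2-fold, and 1.05 with the replicate block. JAG1 differed by -0.996 there with no background correction, also under 2-fold.

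The replicate numbers were taken to pair the arrays only where every same-numbered pair correlated over 0.1, which held in neither culture. Deviations of same-numbered arrays correlated at -0.20 to 0.28 in the co-cultures. In PA6 they did at 0.07 to 0.20 and all others at -0.14 to -0.01, so every PA6 array correlated best with its own number, a hint of pairing from the data. In the co-cultures arrays of the same run of columns correlated at 0.098 to 0.28. The -GFs co-cultures lay in runs 1 and 3, the BMP4 ones in runs 2 and 3, and the FGF2 ones in runs 1, 2 and 3. Differences between co-culture groups are thus partly confounded with the run. With the run as a block BMP4 against FGF2 had 560 calls and BMP4 against -GFs had 596. With the replicate block all member counts were within 1.5 times those reported (4 against 5 between cultures with -GFs, the rest equal), and calls over all genes went to 258, 11 and 23 for BMP4 against -GFs, BMP4 against FGF2, and FGF2 in PA6.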
